A study of Mus musculus with 24 samples.

Results

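The immunity-related GTPase genes Iigp1, Gm4951 and Irgm1 were followed on 24 whole-transcript arrays of mouse cells. They were chosen by symbol: each had 1 probe set that the platform annotation gives to that symbol alone (10455961 for Iigp1, 10455954 for Gm4951 and 10385500 for Irgm1). They are 3 of the 19938 genes with such a probe set. Of the 2 epithelial lines, C57epi.1 came from upper reproductive tract of the strain C57BL/6. The other line, Bm12.4, came from this organ of B6(C)-H2-Ab1bm12/KhEgJ mice, which carry the bm12 mutation of the MHC class II gene H2-Ab1. The macrophages were C57BL/6 bone marrow cells grown with GM-CSF. Each kind of cell was kept in RPMI medium ("media") or given an inflammatory supernatant, with 4 arrays per group. The supernatant was culture fluid of CD4 T cells of a Chlamydia-specific clone held with infected epithelial cells, was used at 33% (v/v), and was brought to 4 ng/ml interferon-gamma. The treatment time is not given in the sources used here. Each epithelial strain is represented by 1 line, so line and strain cannot be told apart, and nor can the cytokine and the rest of the supernatant. Whether replicates came from separate cultures is not stated, so the p-values describe the spread among these arrays alone, which may be technical.

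Immunity-related GTPases are proteins that interferons, above all interferon-gamma, switch on in mouse cells. Effector members bind GTP and gather on the vacuole that holds an intracellular microbe such as Chlamydia or Toxoplasma, which can break the vacuole open. Regulatory members sit on the cell's own membranes and keep the effectors inactive there, and the conjugation machinery of autophagy is needed for effectors to reach their target vacuoles. Iigp1, also called Irga6, is the best known effector. Gm4951 carries the synonym Ifgga2 in RefSeq, beside Ifgga1 for Iigp1, and both lie on the same chromosome with 2 coding genes between them. Irgm1 is a regulatory member.

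Because these genes are classic interferon targets, promoter sequence is shown for the family genes that rose with the treatment and have an entry in the RefSeq promoter table for GRCm38.p6. This was 1 of the 3 members, Irgm1, and 2 relatives described further on, Gm12250 (the effector Irgb10) and Gm12185 (synonym Irgb2b1). Each line gives the 250 bases before the transcript start, 5′ to 3′ on the gene's strand. Capitals mark matches on either strand to the core of the interferon-stimulated response element, which is GAAA, any 2 bases and GAAA again. Irgm1 lies at chr11:48871421-48871670 (minus strand), Gm12250 at chr11:58183593-58183842 (plus strand) and Gm12185 at chr11:48927183-48927432 (minus strand).
Irgm1: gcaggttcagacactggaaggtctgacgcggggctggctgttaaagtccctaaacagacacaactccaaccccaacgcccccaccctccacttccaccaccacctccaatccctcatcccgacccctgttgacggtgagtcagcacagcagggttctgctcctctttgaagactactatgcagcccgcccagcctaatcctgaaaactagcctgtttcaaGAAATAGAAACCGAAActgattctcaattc
Gm12250: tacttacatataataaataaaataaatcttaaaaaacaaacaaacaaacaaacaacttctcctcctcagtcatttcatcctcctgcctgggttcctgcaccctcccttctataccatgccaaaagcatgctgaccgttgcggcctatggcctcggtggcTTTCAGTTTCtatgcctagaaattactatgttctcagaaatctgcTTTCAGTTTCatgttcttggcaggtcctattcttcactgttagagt
Gm12185: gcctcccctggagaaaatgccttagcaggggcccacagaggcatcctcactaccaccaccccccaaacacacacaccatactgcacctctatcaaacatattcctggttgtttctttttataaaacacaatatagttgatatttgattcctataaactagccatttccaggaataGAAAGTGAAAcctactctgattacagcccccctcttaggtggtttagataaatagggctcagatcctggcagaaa
The search covered 300 bases per window, the 250 shown and 50 after the start. Irgm1 held 2 overlapping matches, starting at positions -30 and -24 from the transcript start. Gm12250 held 2 matches on the reverse strand, starting at -91 and -46, and Gm12185 held 1, starting at -75. Of all 32851 windows in the table, 3.44% held this motif. The gamma-activated site, searched as TTCNNNGAA, had 0 matches in Irgm1, 1 in Gm12250 at -61 and 1 in Gm12185 at -86, against 8.3% of all windows. The promoter entry of Irgq, another relative, held neither motif. A match is a run of letters, and binding at these places was not measured.

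The labelled cell kinds were set against defining markers. The mean level of 8 macrophage markers, Csf1r and Ptprc among them, lay between 11.93 and 12.28 (log2) on the 8 macrophage arrays and between 4.16 and 4.62 on the 16 arrays of the lines. Krt19, an epithelial keratin, was high in both lines, with group means from 11.31 to 12.12, but the epithelial adhesion gene Epcam was at 3.67 to 3.79 in all 6 groups and Cdh1 was lower in the lines (4.3 to 4.5) than in the macrophages (6.65 and 7.25). Krt8 was at 9.25 in C57epi.1 in media and 5.67 in Bm12.4 in media. A list of 7 stromal markers with Col1a1 and Sparc averaged 10.83 to 12.05 on the arrays of the lines and 6.85 to 7.43 on those of macrophages. Col1a2, on the same list, went the other way in Bm12.4. It was at 12.43 and 11.84 in C57epi.1 in media and supernatant, 6.01 and 5.68 in Bm12.4, and 7.71 and 7.07 in macrophages. Of 6 dendritic cell markers, Itgax (12.16), Clec9a (7.92) and Ccr7 (7.76) were higher in macrophages in media than in either line in media (3.09 to 4.72), while Xcr1 (3.83), Flt3 (4.72) and Zbtb46 (5.56) were near the level of the lines. The T cell markers, relevant because the supernatant came from T cells, averaged 3.73 to 4.21 on all arrays, and Cd3d was between 3.56 and 3.68 in every group. In bulk RNA such as this, a change in the share of cells of a type and a change in RNA per cell cannot be told apart.

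Iigp1 was low on most media arrays and rose steeply in every kind of cell. In C57epi.1 its level was 3.74, 3.16, 3.36 and 3.83 (log2) on the 4 media arrays and 11.02, 11.01, 11.06 and 11.11 on the 4 treated arrays. In Bm12.4 it was 4.2, 3.76, 6.92 and 6.78 in media and 11.69, 11.78, 11.88 and 11.9 after treatment. In macrophages it was 3.48, 3.2, 3.41 and 3.37 in media and 10.76, 10.84, 11.05 and 11.15 after treatment. No treated array overlapped a media array in any kind of cell, and replicates 3 and 4 of Bm12.4 were the highest media arrays. The rise was 7.53 on the log2 scale in C57epi.1 (SE 0.454, 185-fold, adjusted p = 2.34e-11), the third highest of 19938 genes there. It was 6.4 in Bm12.4 (84.3-fold, adjusted p = 5.12e-10, rank 6). In macrophages it was 7.58 (192-fold, adjusted p = 2.55e-11), rank 1 of the 19938 genes tested. These fold values may understate the rise where the media level is at background, because no detection call was used.

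Gm4951 followed the same pattern as Iigp1. Its level in C57epi.1 was 3.51, 3.46, 3.95 and 3.41 in media and 10.7, 10.29, 10.11 and 10.25 after treatment. In Bm12.4 it was 3.91, 3.6, 5.55 and 5.71 in media and 10.64, 11.03, 11.16 and 11.21 after treatment. In macrophages it was 3.74, 3.79, 4.11 and 3.58 in media and 10.25, 10.44, 10.63 and 10.64 after treatment. Again the treated arrays lay above all media arrays of their kind, and the same 2 Bm12.4 media arrays were the high ones. The log2 rise was 6.75 in C57epi.1 (SE 0.323, 108-fold, adjusted p = 3.32e-13, rank 12), 6.32 in Bm12.4 (79.8-fold, adjusted p = 1.35e-12, rank 7) and 6.69 in macrophages (103-fold, adjusted p = 5.26e-13, rank 2). The 2 genes may share some probe signal if their sequences are close, which was not tested.

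Irgm1 also rose in every kind of cell, by fewer log2 units than the other two, a difference that was not tested. Its level in C57epi.1 was 7.43, 7.61, 7.74 and 7.76 in media and 12.44, 12.01, 11.99 and 11.96 after treatment. In Bm12.4 it was 7.48, 7.42, 8.86 and 9.26 in media and 12.05, 12.11, 12.05 and 12.22 after treatment. In macrophages it was 7.81, 8.18, 8.06 and 8.22 in media and 12.08, 12.11, 12.36 and 12.09 after treatment. The 12 treated arrays thus lay in a narrow band, whatever the kind of cell. The log2 rise was 4.47 in C57epi.1 (SE 0.271, 22.1-fold, adjusted p = 2.56e-11, rank 61), 3.85 in Bm12.4 (14.4-fold, adjusted p = 4.35e-10, rank 59) and 4.09 in macrophages (17.1-fold, adjusted p = 1.28e-10, rank 34).

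**Figure D1:**
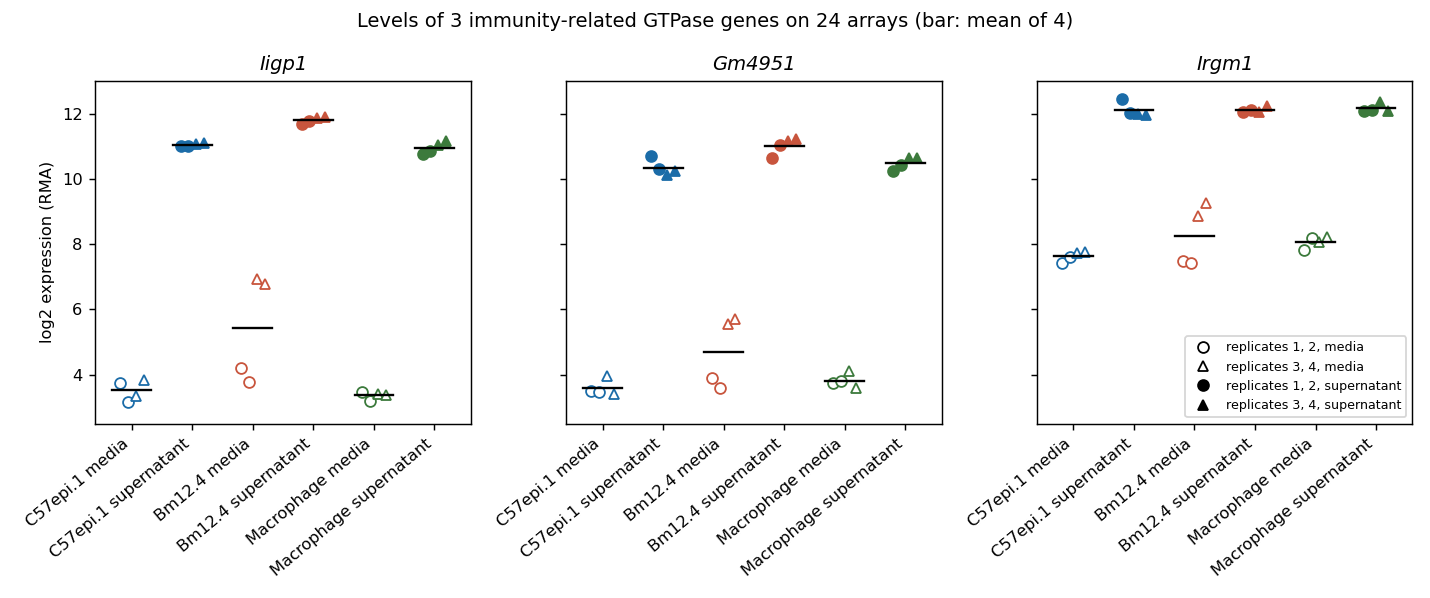
Log2 level of Iigp1, Gm4951 and Irgm1 on each of the 24 arrays, by group; open symbols are media, filled symbols supernatant, circles replicates 1 and 2, triangles replicates 3 and 4, and the bar is the mean of 4. Treated arrays lie above the media arrays for all 3 genes, and replicates 3 and 4 of Bm12.4 in media stand above replicates 1 and 2.

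All 3 members were called higher in each kind of cell, meaning an adjusted p under 0.05 in limma with Benjamini-Hochberg adjustment over 19938 genes. Of all genes, 8.85% were called higher in C57epi.1, 4.54% in Bm12.4 and, for macrophages, 6.13%. Every treated array lay above every media array for all 3 members in each kind of cell, against 9.2%, 5.18% and 9.33% of all genes. The 9 treatment effects kept their direction and their call under each alternative tried, and the lowest value was 3.05, for Irgm1 in Bm12.4.

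In the order of the 6 group levels, Iigp1 went from Bm12.4 in supernatant (11.81 ± 0.097, SD, n = 4) through C57epi.1 (11.05 ± 0.045) and macrophages (10.95 ± 0.18) in supernatant to Bm12.4 (5.42 ± 1.67), C57epi.1 (3.52 ± 0.32) and macrophages (3.37 ± 0.12) in media. Among neighbours, the step of 5.53 from treated macrophages to Bm12.4 in media was called (as for 44.7% of all genes), and so was the step of 1.89 between the lines in media; the other 3 steps were not. For Gm4951 the order was treated Bm12.4 (11.01 ± 0.26), macrophages (10.49 ± 0.18) and C57epi.1 (10.34 ± 0.25), then Bm12.4 (4.69 ± 1.09), macrophages (3.81 ± 0.22) and C57epi.1 (3.58 ± 0.25) in media. Its called steps were 5.64 from treated C57epi.1 to Bm12.4 in media (33.7% of all genes called) and 0.89 from there to macrophages in media (adjusted p = 0.0294), and the latter lost its call without any of 5 single media arrays: replicates 3 or 4 of Bm12.4 (0.6 and 0.55) or replicates 1, 2 or 4 of macrophages (0.87, 0.88 and 0.81). For Irgm1 the treated macrophages (12.16 ± 0.13), Bm12.4 (12.11 ± 0.08) and C57epi.1 (12.1 ± 0.23) lay within 1 SD of each other, followed by Bm12.4 (8.25 ± 0.94), macrophages (8.07 ± 0.18) and C57epi.1 (7.64 ± 0.15) in media. The only called step for Irgm1 was the one from treated C57epi.1 to Bm12.4 in media, 3.85. Its step of 0.43 from macrophages to C57epi.1 in media was not called (adjusted p = 0.222), but these arrays did not overlap. That step became called in 5 of 37 alternatives. The uncalled step of 0.52 for Gm4951 from treated Bm12.4 to treated macrophages became called in 6 of 37.

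Epithelial lines and macrophages were then compared at rest and after treatment. In media, 1 of 3 members was called between the mean of both lines and the macrophages, where 47.1% of all genes were called in either direction. Iigp1 was higher in the lines by 1.1 on the log2 scale (SE 0.393, adjusted p = 0.0239). The value was carried by Bm12.4, which exceeded macrophages by 2.05 (adjusted p = 0.000637; 42.8% of all genes called), while C57epi.1 exceeded them by 0.16 (adjusted p = 0.831; 44.5% of all genes called). Without macrophage media replicate 2 the difference of the lines was 1.05 with an adjusted p of 0.0623. Gm4951 differed by 0.33 (95% interval -0.25 to 0.91, adjusted p = 0.374) and Irgm1 by -0.12 (-0.61 to 0.36, adjusted p = 0.726). Without Bm12.4 media replicates 3 and 4, the difference was 0.39 for Iigp1 (adjusted p = 0.0102), -0.14 for Gm4951 (adjusted p = 0.492) and a called -0.52 for Irgm1 (adjusted p = 0.00019). Without replicates 1 and 2 all 3 were called higher in the lines, at 1.82, 0.8 and 0.28 (adjusted p = 5.19e-12, 5.66e-05 and 0.0462). The direction of Irgm1 thus depended on which of these arrays were kept.

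In supernatant, 0 of 3 members were called between the lines and macrophages, where 48.7% of all genes were. The log2 differences were 0.48 for Iigp1 (95% interval -0.34 to 1.3, adjusted p = 0.345), 0.18 for Gm4951 (-0.4 to 0.76, adjusted p = 0.633) and -0.06 for Irgm1 (-0.54 to 0.43, adjusted p = 0.875). None of the 3 had an unadjusted p under 0.05. For Iigp1 the difference of 0.48 was called in a fit without the media groups (adjusted p = 0.000107), since the wide spread of Bm12.4 in media enters the error of the shared model.

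The rise itself was compared between kinds of cell by interaction terms. Between the mean of both lines and macrophages, limma called 0 of 3 members, and 0 of 3 had an unadjusted p under 0.05, with 8.08% of all genes called in either direction. The rise in the lines minus that in macrophages was -0.62 for Iigp1 (95% interval -1.78 to 0.53, adjusted p = 0.61), -0.15 for Gm4951 (-0.97 to 0.67, adjusted p = 0.897) and 0.07 for Irgm1 (-0.62 to 0.75, adjusted p = 0.949). Without Bm12.4 media replicates 3 and 4 they were 0.1, 0.32 and 0.47, of which Irgm1 was called (adjusted p = 0.0389). Without replicates 1 and 2 they were -1.34, -0.62 and -0.34, of which Iigp1 and Gm4951 were called (adjusted p = 3.2e-06 and 0.0383). Taken line by line, C57epi.1 exceeded macrophages by -0.06, 0.07 and 0.37 in the same gene order, and Bm12.4 by -1.19, -0.37 and -0.24, all uncalled (9.93% and 5.64% of all genes called). A miss of the threshold does not show equal responses, and the interval for Iigp1 still reaches a clearly lower response in the lines (-1.78).

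The lines were also compared with each other. In media, 2 of 3 members were called, with 24.4% of all genes called. C57epi.1 was lower than Bm12.4 for Iigp1 by a log2 difference of -1.89 (SE 0.454, adjusted p = 0.00285) and for Gm4951 by -1.11 (SE 0.323, adjusted p = 0.0128). Irgm1 differed by -0.62 (95% interval -1.18 to -0.06, adjusted p = 0.11). The arrays of the lines overlapped for all 3 genes, because replicates 1 and 2 of Bm12.4 lay near C57epi.1. A two-sided exact permutation test over the 4 and 4 arrays, whose smallest possible p is 0.0286, gave 0.0571 for Iigp1 and 0.0857 for Gm4951. In the fit of these 2 groups alone neither was called (adjusted p = 0.132 and 0.188), while with the replicate number as a block in that fit both were (adjusted p = 0.0285 and 0.0432). For Gm4951 the call was also lost without Bm12.4 media replicate 3 (-0.82) or 4 (-0.77). For Irgm1 the difference became called without replicate 1 (-0.88, adjusted p = 0.0139) or 2 (-0.9, adjusted p = 0.00989).

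After treatment, limma called 0 of 3 members between the lines (1 of 3, Gm4951, had an unadjusted p under 0.05), with 29.9% of all genes called. The log2 difference of C57epi.1 from Bm12.4 was -0.76 for Iigp1 (95% interval -1.71 to 0.18, adjusted p = 0.254), -0.67 for Gm4951 (-1.34 to 0, adjusted p = 0.137) and -0.01 for Irgm1 (-0.57 to 0.55, adjusted p = 0.992). For Iigp1 the highest C57epi.1 array, 11.11, lay below the lowest Bm12.4 array, 11.69, and the exact permutation p was 0.0286, the smallest 4 against 4 arrays can give. In a fit of only the 8 treated arrays of the lines the same differences were called for Iigp1 (adjusted p = 1.85e-05) and Gm4951 (adjusted p = 0.005). The response difference between the lines was 1.13 for Iigp1 (-0.2 to 2.46, adjusted p = 0.427), 0.44 for Gm4951 (-0.51 to 1.38, adjusted p = 0.746) and 0.61 for Irgm1 (-0.18 to 1.41, adjusted p = 0.492); 0 of 3 were called, and 0 of 3 had an unadjusted p under 0.05, with 4.03% of all genes called. These values rest on the media arrays of Bm12.4: without its replicates 3 and 4 they turned to -0.31, -0.5 and -0.19, uncalled, and without replicates 1 and 2 they were 2.56, 1.37 and 1.42, all called (adjusted p = 2.56e-08, 0.00128 and 7.08e-05).

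**Figure D2:**
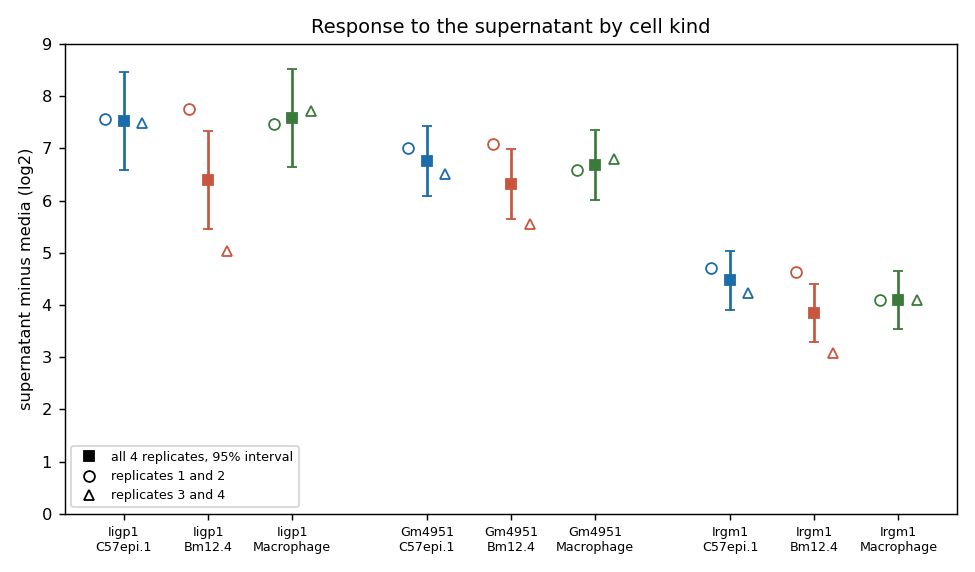
Supernatant minus media on the log2 scale for the 3 genes in each kind of cell: squares are all 4 replicates with the 95% interval of the shared model, circles replicates 1 and 2 alone, triangles replicates 3 and 4 alone. For Iigp1 the replicate sets are at 7.56 and 7.49 in C57epi.1, at 7.46 and 7.71 in macrophages, and apart in Bm12.4, at 7.75 and 5.04.

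The media arrays of Bm12.4 fell into 2 sets. Replicates 3 and 4 exceeded replicates 1 and 2 there by 2.87 for Iigp1, 1.87 for Gm4951 and 1.61 for Irgm1 on the log2 scale, against 0.14, 0.2 and 0.23 in C57epi.1 in media and 0.16, 0.35 and 0.06 in Bm12.4 in supernatant. In media, replicates 1 and 2 of Bm12.4 averaged 3.98 for Iigp1 and replicates 3 and 4 averaged 6.85. The rise of Iigp1 in Bm12.4 was accordingly 7.75 within replicates 1 and 2 and 5.04 within replicates 3 and 4. For Gm4951 these were 7.08 and 5.56, and for Irgm1 4.63 and 3.08. With media arrays 3 and 4 of Bm12.4 left out, the rises in Bm12.4 were 7.83, 7.26 and 4.66, and the line difference in media was -0.46 for Iigp1 (adjusted p = 0.0405), -0.17 for Gm4951 (adjusted p = 0.622) and 0.19 for Irgm1 (adjusted p = 0.411). With arrays 1 and 2 left out instead, the rises were 4.96, 5.38 and 3.05 and the line differences -3.33, -2.05 and -1.42.

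Growth state and interferon signalling genes moved with this split. The mean level of 12 cell cycle genes was 10.21 and 10.24 in replicates 1 and 2 of Bm12.4 in media and 7.61 and 7.92 in replicates 3 and 4. All 12 were lower in both replicates 3 and 4 there, with a median difference of -2.45, where 24.1% of all genes were lower in both. In C57epi.1 in media 11 of 12 were lower (median -1.01), where 23.7% of all genes were lower in both. The mean there went from 10.55 and 10.48 to 9.38 and 9.47, a smaller drop than in Bm12.4. Replicates 3 and 4 of C57epi.1 in media exceeded replicates 1 and 2 by 0.14 for Iigp1, 0.2 for Gm4951 and 0.23 for Irgm1. Stat2, a transcription factor of the type I interferon response, was at 6.69, 7.04, 9.07 and 9.46 in Bm12.4 in media, and Irf9, its DNA-binding partner, at 6.19, 5.71, 8.11 and 8.13. Irf1, a transcription factor that interferon-gamma induces, was at 8.23, 8.82, 9.44 and 9.2. Among 11 interferon-gamma signalling genes 9 were higher in both replicates 3 and 4, with a median of 0.63, against 38.6% of all genes. In C57epi.1 in media 8 of 11 were higher there too (median 0.39, against 28.8% of all genes), with Irf9 at 5.37, 5.34, 6.85 and 6.69 and Stat2 at 7.41, 7.11, 8.13 and 8.02. The part of growth state, culture or batch in the members' levels was not tested.

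**Figure D3:**
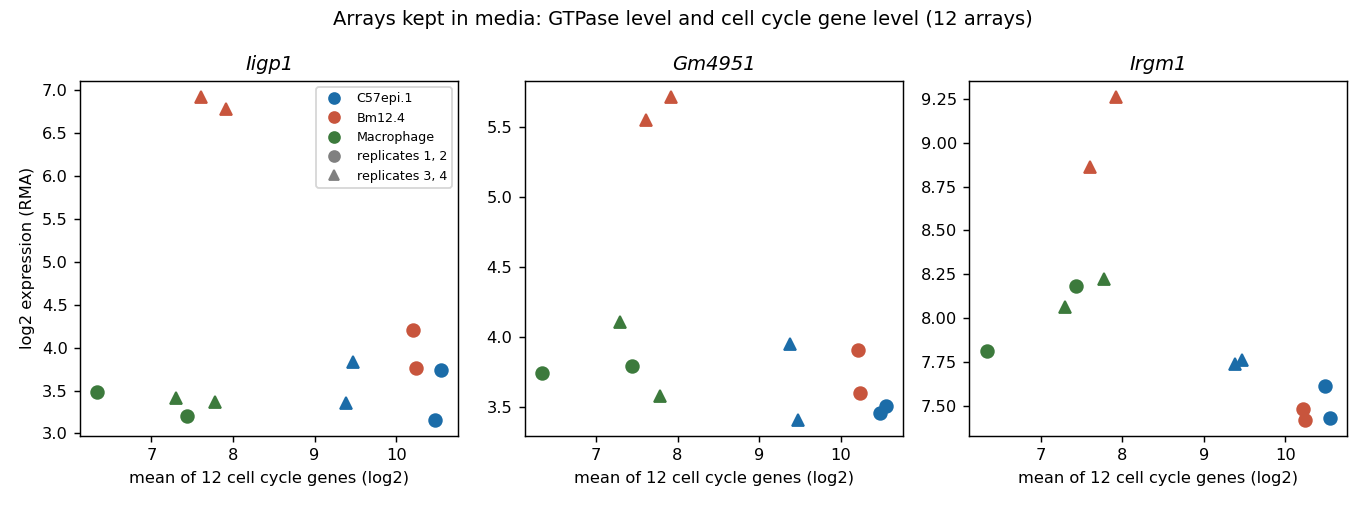
Log2 level of each member against the mean log2 level of 12 cell cycle genes on the 12 media arrays; colour is the kind of cell, circles are replicates 1 and 2, triangles replicates 3 and 4. The 2 Bm12.4 triangles lie highest in each panel, at cell cycle levels of 7.61 and 7.92.

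Of 23 family symbols listed, 7 had a probe set of their own and 4 (Irgb10, Irgc, Ifgga1 and Ifgga2) are synonyms of those genes; Irgm2, Igtp, Ifi47, Tgtp1 and Tgtp2 were among those not analysed here. Gm12250, the effector Irgb10, which is known for acting on Chlamydia inclusions, rose with the members. Its level was 3.85, 4.86, 4.4 and 4.72 in C57epi.1 in media and 12.25, 12, 12 and 12.01 after treatment, a rise of 7.61 (SE 0.302, adjusted p = 1.09e-14, rank 2 of 19938). In Bm12.4 Gm12250 was at 4.71, 4.52, 6.38 and 6.14 in media and 12.21, 12.3, 12.39 and 12.26 after treatment, a rise of 6.85 (adjusted p = 1.01e-13, rank 2). In macrophages it was 6.13, 6.79, 6.79 and 6.72 in media and 10.98, 11.09, 11.36 and 11.39 after treatment, a rise of 4.6 (adjusted p = 1.13e-10, rank 25). Macrophages thus had a higher mean in media and a lower mean after treatment than either line. The treated arrays of macrophages did not overlap those of the lines. In media, replicates 3 and 4 of Bm12.4 (6.38 and 6.14) lay above replicate 1 of macrophages (6.13).

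The response of Gm12250 differed between the lines and macrophages by 2.63 (SE 0.37, adjusted p = 3.62e-05), and the value was 3.04 without Bm12.4 media replicates 3 and 4. Gm12185 did likewise: the rise was 5.02 for C57epi.1, 4.34 for Bm12.4 and 2.47 for macrophages, with a response difference of 2.21 (SE 0.244, adjusted p = 1.34e-06). Its treated level was 8.61 ± 0.38 for C57epi.1, 7.94 ± 0.29 for Bm12.4 and 6.5 ± 0.3 for macrophages (SD, n = 4). Gm12185 and Irgm1 lie on the same chromosome with 1 coding gene between them. For the 3 members the same interaction lay between -0.62 and 0.07, as given above. No test was made of members against relatives.

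The remaining 2 relatives are known as not being part of the interferon-inducible set. Irgc1, known from testis, was flat in the lines, with differences of -0.08 and -0.01, and rose by 0.68 in macrophages (SE 0.0927, adjusted p = 1.07e-05), from 5.52 ± 0.088 to 6.2 ± 0.097. Its response differed from that of the lines by -0.73 (lines minus macrophages, adjusted p = 0.00014). Irgq fell by 0.74 on the log2 scale in C57epi.1 (adjusted p = 0.0156), a call lost in 4 of 38 alternatives, and differed by -0.37 in Bm12.4 and -0.33 in macrophages without a call.

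**Figure D4:**
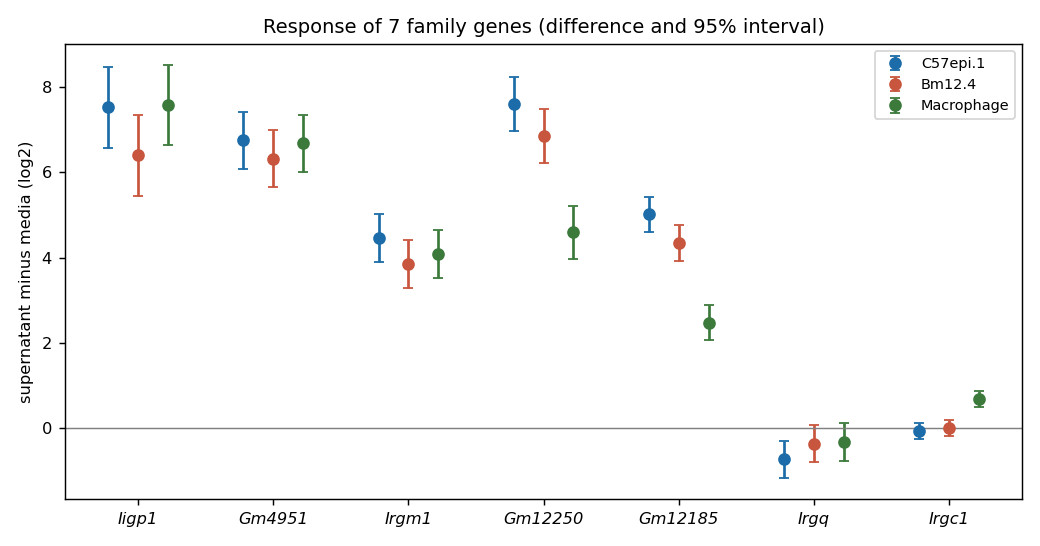
Supernatant minus media on the log2 scale, with 95% intervals of the shared model, for the 3 members and 4 relatives in each kind of cell. The members' intervals overlap between kinds, while Gm12250 and Gm12185 lie lower in macrophages (4.6 and 2.47) than in either line.

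Genes that act upstream of the GTPases were described from a list of 11 measured interferon-gamma signalling genes. In C57epi.1, 6 rose and 1 fell. In Bm12.4, 6 rose and 0 fell, and in macrophages 7 rose and 1 fell. Calls of a fall covered 10.4%, 2.7% and 6.31% of all genes in the same order. Median differences were 0.98, 1.02 and 1.32, where the median of all genes was -0.045, -0.05 and -0.018. Irf1 rose by 3.55 in C57epi.1, by 2.41 in Bm12.4 and by 3.87 in macrophages. Stat2 rose by 3.39, 3.17 and 2.94. In Bm12.4 the rise of Stat2 ran from 1.97 to 4.37 over 38 alternatives and stayed called. Socs1, a feedback inhibitor of the receptor's kinases, rose by 2.08 in macrophages (SE 0.142, adjusted p = 2.03e-10). Its mean also went up in the lines, from 6.34 to 7.31 in C57epi.1 and from 6.42 to 7.72 in Bm12.4. Irf9 rose by 2.56 in C57epi.1 and 1.85 in Bm12.4, where it was 2.93 without media replicates 3 and 4 and an uncalled 0.76 without replicates 1 and 2. In macrophages the mean of Irf9 went from 8.14 in media to 9.2 in supernatant.

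The guanylate-binding proteins are a second family of interferon-induced GTPases that act on the same vacuoles. Of 11 listed, 8 were measured, which leaves out Gbp2, Gbp6 and Gbp10. All 8 measured genes rose in each kind of cell. Their medians (C57epi.1, Bm12.4, macrophages) were 6.11, 5.56 and 4.31, against -0.045, -0.05 and -0.018 over all genes. Calls of a rise covered 8.85%, 4.54% and 6.13% of all genes. Gbp3 rose by 7.78 in C57epi.1, Gbp4 by 6.82, 7.1 and 6.42 in C57epi.1, Bm12.4 and macrophages, and Gbp5 by 6.17 in macrophages. Unlike the 3 members, which had 0 calls, 6 of these 8 had a called response difference between the lines and macrophages, 5 higher in the lines and 1 lower (4.27% and 3.81% of all genes); the 2 families were not tested against each other. Gbp3 differed by 3.59 (SE 0.652, adjusted p = 0.000735). Its mean level (C57epi.1, Bm12.4, macrophages) was 4.15, 6.58 and 8.91 before treatment and 11.94, 12.07 and 11.95 after it. The mean of Bm12.4 in media covers 2 sets of arrays, with Gbp3 at 5.17, 4.61, 8.3 and 8.25 in replicates 1 to 4. In that group 7 of the 8 genes were higher in both replicates 3 and 4 (median 0.69), against 38.6% of all genes. Gbp2b differed by -3.88 (SE 0.129, adjusted p = 7.42e-15), as it reached 8.51 in treated macrophages and 4.39 and 4.47 in the treated lines. By level, 7 of the 8 genes were called lower in the lines than in macrophages in media (22.4% of all genes were). After treatment 3 were called lower and 0 higher (24.4% of all genes were lower).

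A list made around ubiquitin ligases and readers of such vacuoles had 6 measured genes, among them Usp18 and Ubd, which are neither. Of these, 6 rose in C57epi.1, 5 in Bm12.4 and all 6 in macrophages. Of all genes, 8.85%, 4.54% and 6.13% were called higher in the same order. Usp18, a protease that removes Isg15 from proteins, rose by 6.57, 5.09 and 3.52. Rnf213, a very large ubiquitin ligase, rose by 2.74, 2.52 and 3.14, and Trim21, a ubiquitin ligase that binds antibody, by 3.37, 2.99 and 1.92.

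The Atg8 conjugation genes, whose products help load the GTPases, had called responses to the supernatant of at most 0.76 log2 units, in either direction. This limit covers called genes only. Map1lc3b had a mean of 9.84 in C57epi.1 in media and 9.07 in supernatant, without a call. Its spread was wide in Bm12.4 in media (SD 1.02), which enters the error of the shared model. Of 11 measured, 1 rose and 2 fell in C57epi.1, 2 rose in Bm12.4 and 4 fell in macrophages, with medians of -0.06, 0.07 and -0.13. Of all genes, 8.85% rose and 10.4% fell in C57epi.1, 4.54% rose in Bm12.4 and 6.31% fell in macrophages. The counts in C57epi.1 were thus near the background. Those of 2 of 11 in Bm12.4 and 4 of 11 in macrophages were above it, which was not tested. Map1lc3a, an Atg8 protein, fell by 0.76 in C57epi.1 and 0.7 in macrophages on the log2 scale, and Atg3, a conjugating enzyme, rose by 0.59 in C57epi.1. The rise of Atg7, the activating enzyme of the system, by 0.33 in Bm12.4 (adjusted p = 0.0498) lost its call in 25 alternatives. In media, however, all 11 were lower in the lines than in macrophages (22.4% of all genes were; median -0.89, against 0.005 over all genes), with Atg7 lower by a log2 difference of -2.76 (SE 0.0882), Atg5 by -1.26 and Atg12 by -1.12. In supernatant 8 of 11 were lower (24.4% of all genes were; median -0.62). Of 14 other autophagy genes, 3 rose and 7 fell in C57epi.1, among them Ulk2, a starter kinase of autophagy, at -1.03, and the cargo receptor Sqstm1 at 1; in Bm12.4 2 rose and 0 fell, and in macrophages 1 rose and 3 fell. Over all genes the shares that rose and fell were 8.85% and 10.4% in C57epi.1, 4.54% and 2.7% in Bm12.4, and 6.13% and 6.31% in macrophages.

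**Figure D5:**
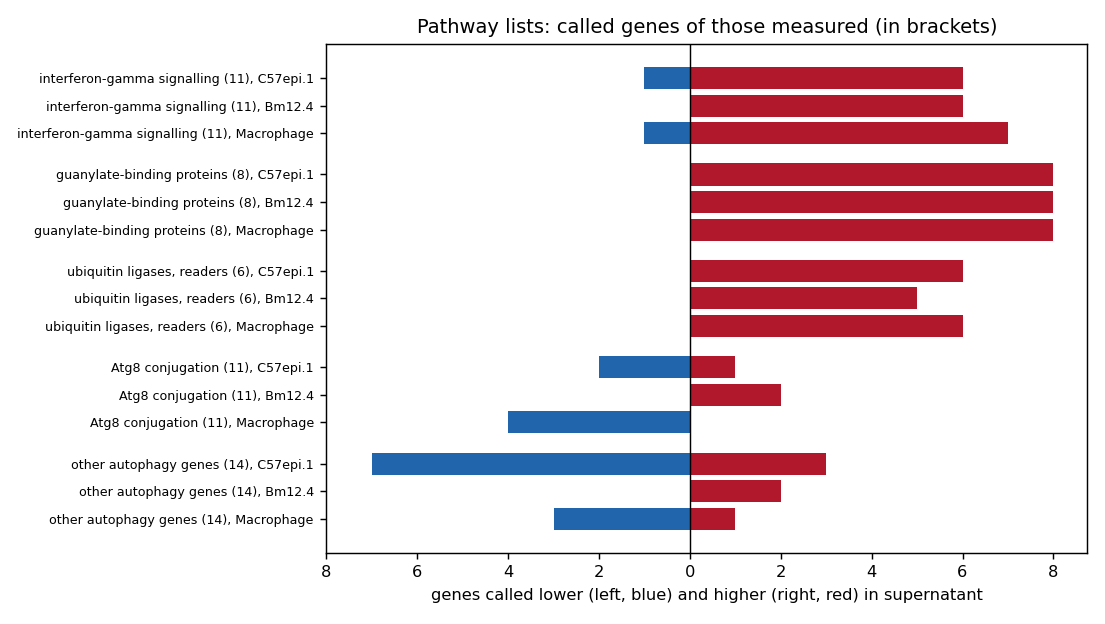
Number of genes called lower (left) and higher (right) in supernatant than in media, for 5 lists in each kind of cell, with the number measured in brackets. The guanylate-binding proteins are called higher in 8 of 8. The Atg8 conjugation genes are called higher in at most 2 of 11 and lower in at most 4.

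The genes whose log2 level ran most like the members' over the 24 arrays are given as a description, since the arrays share groups and treatment. For Iigp1 the 5 highest Pearson correlations were with Gm4951 (r = 0.993), Ddx58 (0.9915), Rnf213 (0.9873), BC023105 (0.9863) and Ifit3 (0.986). For Gm4951 they were with Irgm1 (0.9935), Iigp1 (0.993), Ifi205 (0.9895), Parp10 (0.9868) and Rnf213 (0.9843). For Irgm1 they were with Gm4951 (0.9935), Ube2l6 (0.9872), Gbp5 (0.986), Xaf1 (0.9852) and Ifi205 (0.9847). By r over the 24 arrays, each member thus had another member as its closest gene. Over the 6 group means this held for Irgm1 alone among the genes named. There Iigp1 had a higher r with Ddx58 (0.9991) than with Gm4951 (0.9959). Likewise, Gm4951 had a higher r with Parp10 (0.9974) than with Irgm1 (0.9965). After the group means were taken away, the deviations of the members correlated at 0.88 for Iigp1 with Gm4951, 0.88 for Iigp1 with Irgm1 and 0.9 for Gm4951 with Irgm1, and these deviations include those of the 4 media arrays of Bm12.4. The deviations of Iigp1 also correlated with genes outside the family, at 0.93 with Ifit3, 0.92 with BC023105, 0.9 with Ddx58 and 0.75 with Rnf213.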

How the data were processed

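Each array was hybridised with labelled total RNA (from 100 ng). Per the submitters' processing notes the authors used GCOS, Partek 6.2 and RMA. Their order is not given in the sources used here. In the deposited table are log2 values with 1 value for each probe set and array. Of 28853 probe sets, 21789 had 1 symbol; the 1621 with several and the 5443 without any were not used. Array medians were 5 to 5.19, within-group correlations 0.967 to 0.9975, and 0 pairs of arrays were identical. The number of arrays, 4 per group, limits the precision.

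The probe set with the highest mean per symbol was kept (19938 genes). The model was fitted in R 4.3.3 with limma 3.58.1 and statmod 1.5.0, with default moderation and a mean per group over all 24 arrays (18 residual degrees of freedom, 3.62 prior), two-sided, adjusted by Benjamini-Hochberg, and called at an adjusted p under 0.05. The comparisons of each line with macrophages were added from the same model. On simulated data for the C57epi.1 treatment effect (19938 genes), 50% of log2 changes of 0.5, 80% of 1, 98% of 2 and 100% of 4 were recovered. Alternatives were single replicates or sets left out, only the compared groups, a replicate block, median centring, repeated quantile normalization, array weights, trended robust moderation, the mean of a gene's probe sets, all probe sets in the adjustment, an exact permutation test and a filter at log2 6 (10762 genes). The labels tie no replicate number to a shared culture or day. In 2 of 15 pairs of groups every same-number correlation was over 0.1, between the lines in media (0.51 to 0.63) and between media and supernatant in Bm12.4 (0.23 to 0.68), and over all pairs they ran from -0.18 to 0.68.

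Named were the members, all relatives with their own probe set, up to 3 of the largest called genes per list and comparison, and the 5 genes most correlated with each member. Further genes shown beside them, such as Stat2, Irf9 and Irf1 by array and the cell type markers, were chosen after their values were seen. The members and lists were chosen with earlier results of these data known.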

Additional observations from a re-analysis of the deposited data

Results flagged for a closer look

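Among 42 sets of 4 arrays of the family genes, 4 had an array far from the other 3 by Dixon's 95% limit, and chance flags about 1 in 20 such sets. Irgm1 was at 12.44 in C57epi.1 in supernatant, replicate 1, where the other 3 arrays were between 11.96 and 12.01. Irgm1 was at 12.36 in treated macrophages, replicate 3, against 12.08 to 12.11 in the others. Gm12250 was at 12.25 in C57epi.1 in supernatant, replicate 1, against 12 to 12.01 in the others. Gm12250 was at 6.13 in macrophages in media, replicate 1, against 6.72 to 6.79 in the others. The 2 high values in treated C57epi.1 were on the same array.

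The response to the supernatant differed between the mean of both lines and macrophages, by an interaction test in limma, for 3 relatives of the members and for the 2 guanylate-binding protein genes whose response difference the report gives. The difference, lines minus macrophages on the log2 scale, was 2.63 for Gm12250, 2.21 for Gm12185, -0.73 for Irgc1, 3.59 for Gbp3 and -3.88 for Gbp2b. None of the 3 members had a called response difference in the model of all 24 arrays; their unadjusted p-values were all above 0.05.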

How the results depend on the processing

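All 351 alternative values of the 9 treatment effects kept direction and call. Of 678 values of the other comparisons, 596 kept both, and the rest follow, in the order Iigp1, Gm4951, Irgm1 where 3 are given. The fits that leave out Bm12.4 media arrays were chosen after seeing the data.

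Without Bm12.4 media arrays 3 and 4, the response differences were 0.1, 0.32 and 0.47 (lines against macrophages) and -0.31, -0.5 and -0.19 (between lines). The media differences were -0.14 for Gm4951 and -0.52 for Irgm1 (lines against macrophages), -0.17 for Gm4951 and 0.19 for Irgm1 (between lines), and -0.05 for Gm4951 and -0.62 for Irgm1 (Bm12.4 against macrophages). Without arrays 1 and 2, the response differences were -1.34, -0.62 and -0.34, and 2.56, 1.37 and 1.42. The media differences were 0.8 for Gm4951 and 0.28 for Irgm1 against macrophages, and -1.42 for Irgm1 between lines. In both fits and in that of only the compared groups, Iigp1 was called in supernatant at 0.48 (lines against macrophages) and -0.76 (between lines), and Gm4951 at -0.67 (between lines). In the fit of only the compared groups, Iigp1 lost its media calls (1.1 and -1.89) and Gm4951 its own (-1.11).

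In replicates 1 and 2 alone, the response differences were 0.2 for Iigp1 and 0.46 for Gm4951, and -0.19 and -0.07 between lines. In media, values were 0.38, -0.14 and -0.51 (lines against macrophages), -0.53, -0.27 and 0.07 (between lines), and -0.01 for Gm4951 and -0.55 for Irgm1 (Bm12.4 against macrophages). In supernatant, Iigp1 was at 0.57 and -0.72 (called), Irgm1 at 0.06 and 0.14, and Gm4951 at 0.15 (C57epi.1 against macrophages). In replicates 3 and 4 alone, the response differences were -1.44, -0.76 and -0.44, and 2.45, 0.94 and 1.15. Media values were 0.81 for Gm4951 and 0.26 for Irgm1 (lines against macrophages) and -1.31 for Irgm1 (between lines). In supernatant Iigp1 was at 0.39 and -0.81, Gm4951 at -1.01, and Iigp1 at -0.02 for C57epi.1 against macrophages.

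Median centring turned Irgm1 in supernatant to 0.01 and 0.03. Array weights gave -0.83 (Gm4951, media, call lost), -0.77 and -0.81 (Iigp1 and Gm4951, supernatant, called) between lines, and -0.01 for Irgm1 in Bm12.4 against macrophages in media. The exact permutation test left Iigp1 (-1.89) and Gm4951 (-1.11) in media above 0.05 and put Iigp1 in supernatant (-0.76) below it.

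Leaving out single replicates gave these ranges. Lines against macrophages in media: Iigp1 0.85 to 1.38, Irgm1 -0.29 to 0.02. In supernatant: Irgm1 -0.11 to 0.01. Response: Gm4951 -0.33 to 0.02, Irgm1 -0.07 to 0.23. Between lines: Gm4951 -1.47 to -0.77 and Irgm1 -0.9 to -0.29 in media, Irgm1 -0.12 to 0.04 in supernatant. Bm12.4 against macrophages: Irgm1 -0.15 to 0.47 in media and -0.09 to 0.01 in supernatant.

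The replicate block over all 24 arrays changed no call of the members (Iigp1 between lines in media -1.89, adjusted p = 0.00155). With the block in a fit of only the compared groups, the supernatant differences between lines were called for Iigp1 (-0.76) and Gm4951 (-0.67), where 1 same-number correlation, 0.08, was under 0.1. The cause of these changes was not tested, beyond the smaller residual of fits without the Bm12.4 media arrays. No detection p-value was used, so low levels cannot be told from background, and precision is limited by 4 arrays per group.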
